A study of Rattus norvegicus with 12 samples.

Results

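BMAL1, CLOCK and CRY1 are 3 of the 32883 genes quantified in rat choroid plexus, the secretory tissue in the brain ventricles that produces cerebrospinal fluid. They were chosen by name as the activators of the molecular clock and one of its repressors, and their rows were found through the identifiers that the study pairs with these symbols, ENSRNOG00000014448 for BMAL1, ENSRNOG00000002175 for CLOCK and ENSRNOG00000006622 for CRY1. All 3 pairings came from the study's list of differentially expressed genes, which was made from these same libraries, so a difference between the phases in these genes is not independent evidence. The question addressed here is at what level each of the 3 transcripts stood in either phase, and how far their proportions to each other shifted.

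The animals were male Sprague-Dawley rats aged 9 weeks, kept under 12 h of light and 12 h of dark. The light group (n = 6) was sampled at zeitgeber time (ZT) 8 h, counted from lights on, and the dark group (n = 6) at ZT 20 h, in darkness under a red lamp. Both groups were anaesthetised with ketamine and xylazine, and each of the 12 libraries held the whole plexus tissue of 1 rat, taken from the lateral ventricles and the fourth, so that each group is a single time point and no course between the time points was measured. In whole tissue, fewer cells of a type and less RNA per cell cannot be told apart.

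In the mammalian clock, the proteins BMAL1 and CLOCK form a dimer that binds E-box sequences and switches on the genes of their own repressors, the PER and CRY proteins. CRY1 binds the dimer and silences it, and its breakdown allows the next cycle to begin. A second loop acts on the BMAL1 gene itself, where ROR receptors activate and REV-ERB receptors repress transcription through ROR response elements (ROREs), and CRY1, CLOCK, NPAS2 and NFIL3 are also textbook targets of that loop.

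The RORE sequences next to the BMAL1 start are shown because the gene is the textbook case of this control, and because BMAL1 had the largest change of the 3 genes. They were taken from RefSeq windows of 250 bases before and 50 bases after a gene's start, on build GRCr8, which is not the build used for the expression values. The capitals mark matches to AAAGTAGGTNA, in which N is any base, letters that were chosen after the BMAL1 window had been read (its RORE core with 5 bases before it and 1 core base left free). The matches begin 56 and 20 bases before the start.
BMAL1 RORE at 56 bases, chr1:176766264-176766290, strand +: ttggtcggAAAGTAGGTTAgtggtgcg
BMAL1 RORE at 20 bases, chr1:176766300-176766326, strand +: gaaggcagAAAGTAGGTCAgggacgga

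Read on both strands, AAAGTAGGTNA occurred in 12 of 33469 windows (0.0359%). The 1 window that held it 2 or more times was that of BMAL1, from which the letters had been written. The second BMAL1 site also holds the RORE core AGGTCA, which overlaps the longer match and was present in 16.2% of all windows. The BMAL1 window further held 5 matches to CCAAT, all on the minus strand, and 0.218% of windows held 5 or more. No match was found in it to the E-box CACGTG (6.42% of windows), to CACGTT (4.83%), to the D-box TTATGTAA (0.893%) or to the cAMP response element TGACGTCA (1.83%). The windows of CLOCK and NPAS2 held no match to any of these letters, and no promoter window of CRY1 was used here. A match is a description of the sequence and does not show that a factor was bound.

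BMAL1, CLOCK and CRY1 were each higher in the dark phase, with the lowest dark library above the highest light library. Over the 12513 genes tested, 9.89% were called higher in the dark phase, 5.12% were higher in the dark phase without overlap and 8.26% did not overlap in either direction. BMAL1 stood at 0.910 TPM, a share of all transcripts after division by transcript length, in the lowest light library, at a median of 1.44 TPM and at 2.38 TPM in the highest. In the dark phase it stood at 19.6 TPM in the lowest library, at a median of 20.04 TPM and at 24.1 TPM in the highest. The gap between the phases was wide, since the lowest dark value was 8.22 times the highest light value. On the scale of log2(scaled TPM + 0.5) the difference was 3.40 (SE 0.13, limma, FDR = 3.45e-09), which placed BMAL1 at rank 2 among all rises. At the low light level of BMAL1, the added 0.5 TPM understates the change, and the means differed 13.5-fold.

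CRY1 ranged in the light phase from 5.39 TPM to 9.16 TPM with a median of 6.05 TPM. In the dark phase it ranged from 21.8 to 24.4 TPM with a median of 23.3 TPM. The light library with 9.16 TPM, light replicate 2, stood above the other 5, which reached 6.62 TPM at most, and the lowest dark library was still 2.38 times that high light value. CRY1 rose by 1.77 on the log2 scale (SE 0.09, limma, FDR = 5.86e-08), at rank 16 among the rises.

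CLOCK, the partner of BMAL1 in the dimer, had the smallest change of the 3 genes. It lay between 8.88 and 12.0 TPM in the light phase, with a median of 10.8 TPM, and between 17.6 and 19.6 TPM in the dark phase, with a median of 18.2 TPM. The lowest dark library was 1.47 times the highest light library, so the phases were close but did not overlap. The difference was 0.76 on the log2 scale (SE 0.05, limma, FDR = 5.72e-07), at rank 127 among the rises.

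**Figure D1:**
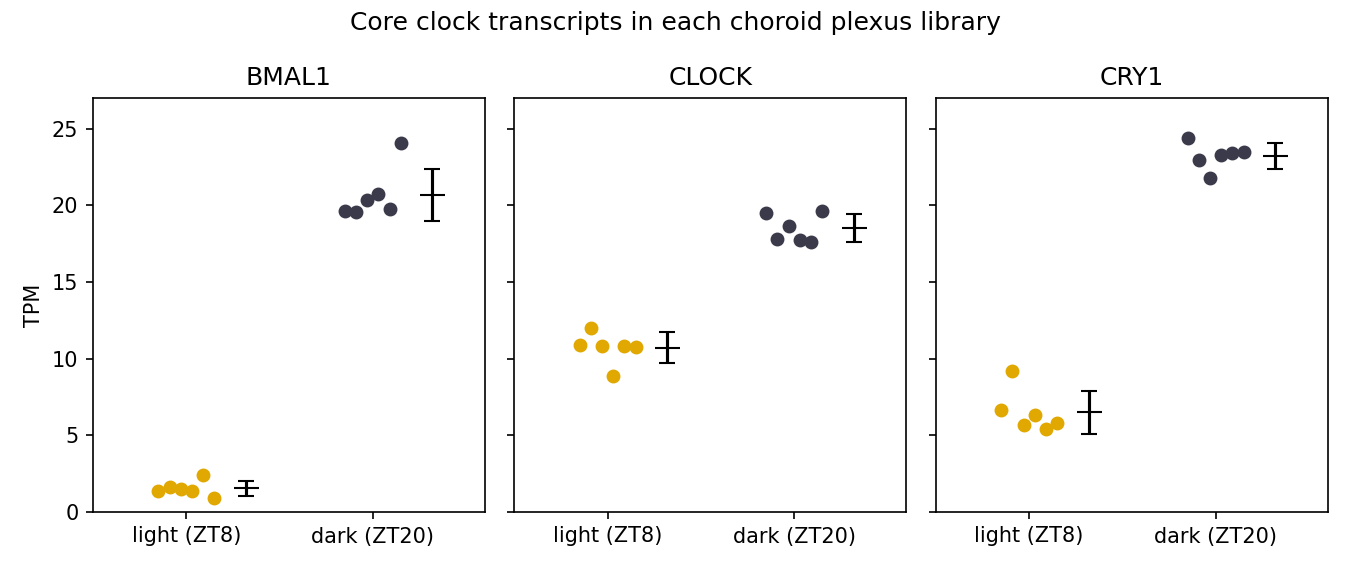
TPM of BMAL1, CLOCK and CRY1 (vertical axis, from 0) in the 6 light and 6 dark libraries. Each point is 1 rat, and the black bar beside the points is the mean with its SD. The 3 genes are spread apart in the light phase and lie between 17.6 and 24.4 TPM in the dark phase.

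The 3 transcripts stood far apart in the light phase and close together in the dark phase. In the light phase the order CLOCK, CRY1, BMAL1 from high to low held in 6 of 6 libraries, although the highest CRY1 value, 9.16 TPM, exceeded the lowest CLOCK value, 8.88 TPM, in another library. In the dark phase the order was CRY1, BMAL1, CLOCK in 5 libraries, and in dark replicate 6 BMAL1 stood above CRY1. BMAL1 and CRY1 were neighbours whose dark ranges overlapped (19.6 to 24.1 and 21.8 to 24.4 TPM). BMAL1 was above CLOCK in 6 of 6 dark libraries, but the highest CLOCK value, 19.62 TPM, lay above the lowest BMAL1 value, 19.56 TPM.

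As a share of the summed TPM of the 3 genes, BMAL1 made up 8.18% ± 2.54 (SD, n = 6) in light and 33.1% ± 1.63 (SD, n = 6) in dark libraries. CLOCK made up 57.3% ± 3.55 and 29.6% ± 0.866, and CRY1 34.5% ± 4.15 and 37.2% ± 1.501, in light and dark libraries (SD, n = 6 each). The share of CLOCK thus fell while its level rose, and the sum of the 3 genes was 18.7 ± 2.16 TPM in light libraries and 62.4 ± 2.60 TPM in dark libraries (SD, n = 6 each).

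The place of the genes among all tested transcripts moved in the same way. In the light phase BMAL1 stood above 2.61 to 12.7% of the tested genes, and in the dark phase above 62.9 to 68.5%. CRY1 went from 28.6 to 39.8% to 65.9 to 68.8%. CLOCK went from 43.1 to 47.8% to 60.2 to 63.0%, the shortest way of the 3.

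The spread between rats was wider in the light phase for each gene. The coefficient of variation of BMAL1 was 31.5% in light and 8.33% in dark libraries, and that of CLOCK was 9.46% and 4.91%. CRY1 had 21.3% in light and 3.67% in dark libraries, and its light value was 8.40% without light replicate 2. The median over all tested genes was 10.4% in light and 8.96% in dark libraries. The difference in spread was not tested, and the number of reads behind these values is not in the files used.

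Ratios within a library do not depend on the scaling of that library, and they show how unequal the changes were. The ratio of BMAL1 to CLOCK was 0.0847 to 0.220 in the light phase (median 0.137) and 1.01 to 1.23 in the dark phase (median 1.11). In TPM, the 2 dimer partners thus went from a large excess of CLOCK to nearly equal levels. How the levels of 2 genes compare depends on the transcript lengths used for TPM. The TPM ratio rose 8.09-fold (log2 difference 3.02, SE 0.19), and with 0.5 TPM added to both genes the log2 difference was 2.65 (SE 0.14; exact permutation test, two-sided, p = 0.00216, which is the lowest value possible with 6 against 6 libraries). The same p was found for each of the 4 ratios computed, and it was 0.00216 after Benjamini-Hochberg adjustment over them.

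The ratio of BMAL1 to CRY1, of activator to repressor transcript, was 0.157 to 0.442 in the light phase (median 0.213) and 0.805 to 1.03 in the dark phase (median 0.872). It rose 3.87-fold (log2 difference 1.95, SE 0.22), and by 1.63 on the log2 scale with 0.5 TPM added to both genes (SE 0.18, exact permutation p = 0.00216). The ratio of CRY1 to CLOCK was 0.499 to 0.762 in the light phase (median 0.573) and 1.17 to 1.33 in the dark phase (median 1.27). CRY1 was the less abundant of that pair in each light library and the more abundant in each dark library, and with 0.5 TPM added the log2 ratio differed by 1.01 (SE 0.10, exact permutation p = 0.00216).

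NPAS2 is the paralogue of CLOCK and can take its place beside BMAL1. It stood at 3.90 to 6.26 TPM in the light phase (median 4.76 TPM) and at 12.3 to 15.6 TPM in the dark phase (median 13.3 TPM). NPAS2 rose by 1.40 on the log2 scale (SE 0.11, limma, FDR = 2.88e-06), more than CLOCK did. The ratio of CLOCK to NPAS2 fell from 1.73 to 3.08 in the light phase (median 2.27) to 1.14 to 1.59 in the dark phase (median 1.37), a log2 difference of -0.64 with 0.5 TPM added (SE 0.14, exact permutation p = 0.00216). CLOCK was the more abundant of the paralogues in 12 of 12 libraries.

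Summed, the alternative partners CLOCK and NPAS2 stood at 15.5 ± 1.01 TPM in light libraries and 32.2 ± 1.69 TPM in dark libraries (SD, n = 6 each). The ratio of BMAL1 TPM to this sum was 0.0976 ± 0.0259 in light libraries and 0.643 ± 0.0413 in dark libraries (SD, n = 6 each). BMAL1 thus stayed below the sum of its partner transcripts in every library, with values of 0.0595 to 0.140 in light and 0.585 to 0.693 in dark libraries. For BMAL2 and CRY2, the paralogues of BMAL1 and CRY1, no identifier was paired, and they were not analysed here.

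**Figure D2:**
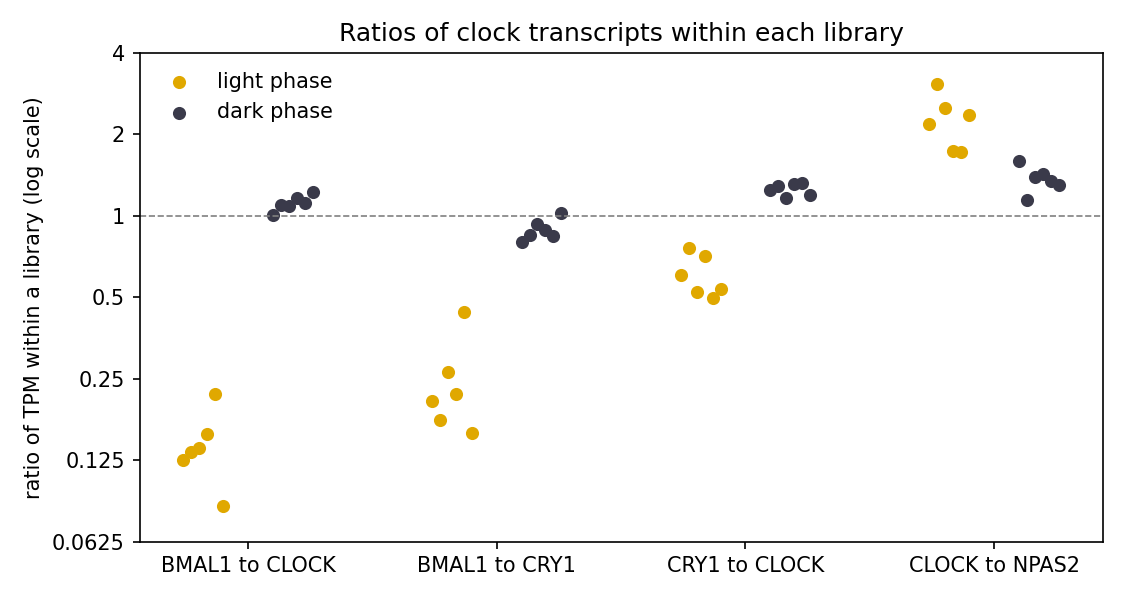
Ratio of TPM within each library for 4 pairs of clock transcripts (vertical axis, log scale, dashed line at a ratio of 1). Each point is 1 library, yellow for the light phase and dark grey for the dark phase. The phases do not overlap in any pair, and BMAL1 to CLOCK moves furthest, from a median of 0.137 to 1.11.

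Among rats of 1 phase the 3 genes showed no detectable relation, but with 6 libraries only a strong relation could have passed. Of the 6 relations tested (3 pairs in each phase, n = 6 libraries, log2 scale), Pearson's r ran from -0.18 for BMAL1 with CRY1 in the light phase to 0.46 for BMAL1 with CLOCK in the dark phase. The smallest exact permutation p was 0.400, and after adjustment over the 6 relations each was 0.907. Spearman's rho ran from -0.54 to 0.26, with a smallest exact permutation p of 0.297 and adjusted values from 0.857 to 1.00. The values of r hung on few libraries. Leaving out the 2 libraries farthest from the median of the x-axis gene moved r, over the 4 that were left. In the dark phase it moved to -0.98 for BMAL1 with CRY1 and to -0.75 for CLOCK with CRY1. The other pairs lay between -0.33 and 0.37.

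Of 47 clock genes listed by role, BMAL1, CLOCK and CRY1 included, 23 had a paired identifier. Of these, 10 were called higher in the dark phase, 5 higher in the light phase and 8 were not called. Over all genes tested, 17.7% were called in either direction, and 7.78% were called higher in the light phase. The pairings were uneven: 18 of the 23 identifiers came from the study's list of differentially expressed genes, of which only a part was held. Of these 18 genes, 10 were called higher in the dark phase, 3 higher in the light phase and 5 were not called. Of all 2053 tested genes with a symbol through that list, 1337 were called, so the share over all genes is no yardstick for the 18. A symbol was held for 1022 of the 1238 genes called higher in the dark phase, against 462 of the 974 called higher in the light phase. The median log2 change was 0.18 over the 23 genes, 0.08 over the 20 genes without BMAL1, CLOCK and CRY1, and near 0 over all tested genes (-0.0025).

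The 5 textbook RORE targets, BMAL1, CLOCK, NPAS2, CRY1 and NFIL3, were all called higher in the dark phase, with a median log2 change of 1.77. BMAL1, CLOCK and CRY1 are themselves in this list, and the median is the value of CRY1. All 5 identifiers came from the list of differentially expressed genes. Of the 2053 tested genes with a symbol through that list, 1337 were called, so these 5 calls are not independent evidence. NFIL3 encodes a repressor that competes for D-box sequences. It stood at 1.88 to 4.26 TPM in the light phase (median 2.29 TPM) and at 12.6 to 16.6 TPM in the dark phase (median 14.1 TPM), and its log2 difference was 2.30 (SE 0.13, limma, FDR = 2.19e-07). Of the receptors that act on ROREs, RORA had an identifier, with 3.54 to 4.86 TPM in the light phase and 3.13 to 5.42 TPM in the dark phase. Its ranges overlapped, and its log2 difference of 0.08 (SE 0.11, limma, FDR = 0.652) did not pass the test. RORA was nevertheless in the study's list of differentially expressed genes, which was made from read counts. The REV-ERB genes NR1D1 and NR1D2 were not analysed here.

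Of 11 listed textbook E-box targets of the BMAL1 and CLOCK dimer, the 2 with an identifier lay in the opposite direction. CRY1, whose gene the dimer also switches on, was counted with the RORE targets and not in this list, and it was higher in the dark phase. DBP, a D-box activator, stood at 194 ± 19.7 TPM when light and 16.6 ± 1.41 TPM when dark (SD, n = 6 each). TEF, a related activator, stood at 51.9 ± 6.12 and 15.1 ± 0.870 TPM (SD, n = 6 each). The log2 differences were -3.52 for DBP (SE 0.08, limma, FDR = 9.08e-12) and -1.75 for TEF (SE 0.07, limma, FDR = 3.86e-09). Both identifiers came from the study's table of all genes and not from the part of its list of differentially expressed genes held here. Within the D-box family, DBP and TEF were thus lower and NFIL3 higher at the time when BMAL1 was high.

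CIPC, a repressor that binds CLOCK, was the other listed repressor with an identifier beside CRY1. It moved the other way, from 23.2 to 19.0 TPM on average, a log2 difference of -0.29 (limma, FDR = 0.000415). The CIPC identifier also came from the study's list of differentially expressed genes. The PER genes, CIART, BHLHE40 and BHLHE41 were not analysed here.

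Cofactors of the dimer and of REV-ERB had smaller differences than the 3 genes. Of 5 with an identifier, the corepressor NCOR1 (log2 difference 0.26) and the methyltransferase KMT2A (0.29) were called higher in the dark phase. The deacetylase HDAC3, a partner of the corepressor, was called lower (-0.25). KMT2A had a limma FDR of 0.0493 and kept its call in 7 of 23 alternative analyses. The acetyltransferase CREBBP (0.18) and the RNA-binding protein NONO (0.04) did not pass the test. The identifiers of NCOR1, KMT2A, HDAC3 and CREBBP came from the study's list of differentially expressed genes, and that of NONO from its table of all genes. Over all genes tested 17.7% were called, against 1337 of the 2053 with a symbol through that list. The calls among these cofactors are thus not independent evidence.

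Of the genes for the modification and breakdown of CRY and PER proteins, 9 had an identifier. The kinase CSNK1D (log2 difference 0.20), the ubiquitin ligase adaptor DDB1 (0.20) and the F-box protein BTRC (0.30) were called higher in the dark phase, and the scaffold CUL1 was called lower (-0.15). The kinases GSK3B (0.21), PRKAA2 (-0.11) and CSNK2A1 (0.02), the F-box protein FBXW11 (0.09) and the adaptor SKP1 (-0.00293) did not pass the test. Apart from CSNK2A1 and SKP1, the identifiers came from the study's list of differentially expressed genes. The share of 17.7% called over all genes is thus no yardstick here, and GSK3B, PRKAA2 and FBXW11 were in that list without a call here. With each library's quotient of summed FPKM over summed TPM in the model, BMAL1, CLOCK, CRY1, NPAS2, NFIL3, DBP and TEF remained called, and the other called clock genes no longer passed the limma test. Of these, CSNK1D (0.21), DDB1 (0.22) and BTRC (0.39) kept at least the size of their log2 differences, with SEs that went from 0.033 to 0.054, from 0.038 to 0.061 and from 0.068 to 0.11. The differences of CIPC (-0.19), NCOR1 (0.15), HDAC3 (-0.09), CUL1 (-0.07) and KMT2A (-0.034) were nearer to 0. That quotient was 0.953 to 0.987 in the light libraries and 0.934 to 0.960 in the dark libraries, and its part in the results was not tested beyond this model.

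**Figure D3:**
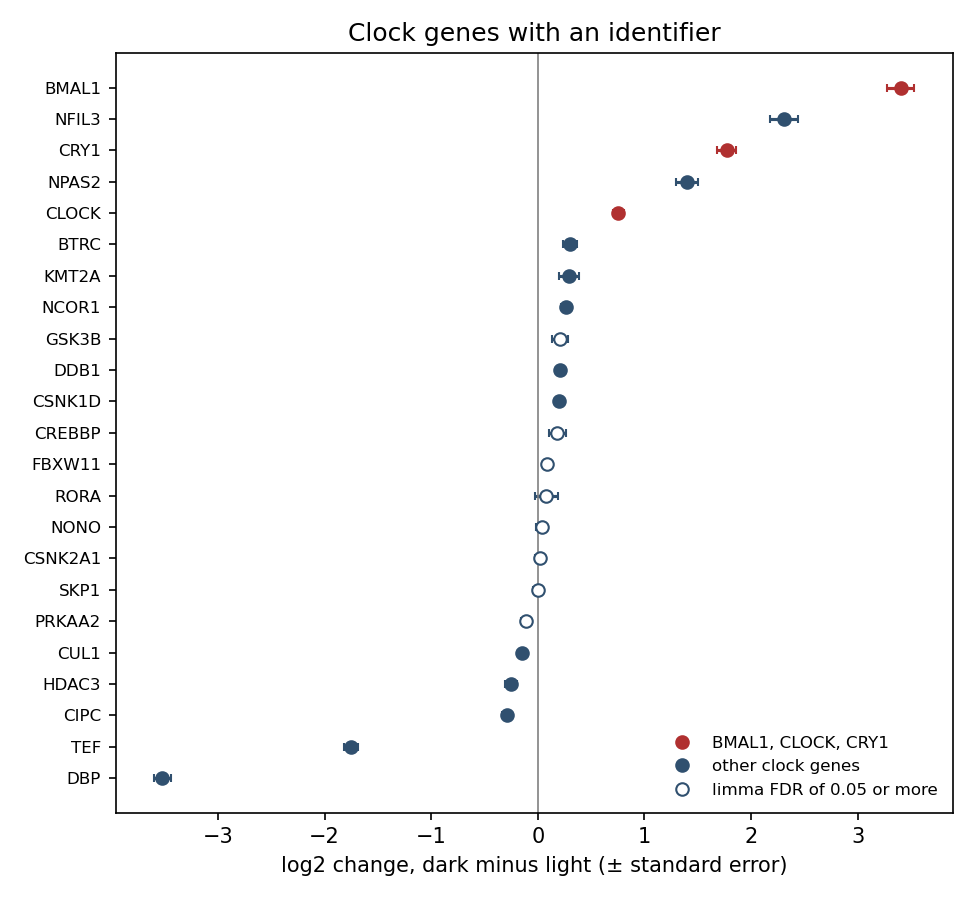
Difference between the dark and the light phase (horizontal axis, log2 scale, bars are the standard error) for the 23 clock genes with an identifier, ordered by size. Red points are BMAL1, CLOCK and CRY1, blue points are the other genes, and hollow points had a limma FDR of 0.05 or more. BMAL1 at 3.40 and DBP at -3.52 stand at the ends.

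The genes whose profile over the 12 libraries was most like that of each gene were found by the root mean square difference of log2 values, each profile centred on its own mean. The profiles were not scaled to equal spread, so the distance largely follows the size of the difference between the phases. For BMAL1 these were NFIL3 (0.627), the membrane protein TMEM171 (0.694) and CRY1 (0.865), and CLOCK stood in place 64 (1.34). TMEM171 rose from a mean of 0.175 TPM to 2.81 TPM. Its light libraries held 0 to 0.34 TPM, below the added 0.5 TPM, so its log2 difference depended on the amount added. The difference was 3.504 with 0.1 TPM added and 1.67 with 1 TPM added. With 1 TPM added, CRY1 stood in place 2 for BMAL1 and TMEM171 in place 3.

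CLOCK had closer neighbours, the kinase HIPK2 (0.0841), the transcription elongation factor subunit LEO1 (0.0939) and the motor protein MYO10 (0.0966). Their log2 differences between the phases, 0.74, 0.77 and 0.71, were near that of CLOCK, 0.76. HIPK2 rose from 18.8 to 31.8 TPM on average, LEO1 from 14.5 to 25.4 TPM and MYO10 from 9.03 to 15.2 TPM. None of these is a textbook component of the clock loop.

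For CRY1 the closest were the matrix protein THBS2 (0.235), NFIL3 (0.311) and the nuclear coregulator PNRC1 (0.315), and CLOCK stood in place 38 (0.531). THBS2 rose from 21.7 to 62.4 TPM and PNRC1 from 22.2 to 51.1 TPM on average. BMAL1, at rank 2 among the rises, had larger distances than CLOCK and CRY1, and few genes changed by as much. The order is a description over 12 libraries that share the 2 phases. With 0.1 TPM added in place of 0.5, NFIL3 stood in place 6 for CRY1, and with 1 TPM added PNRC1 stood in place 4.

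**Figure D4:**
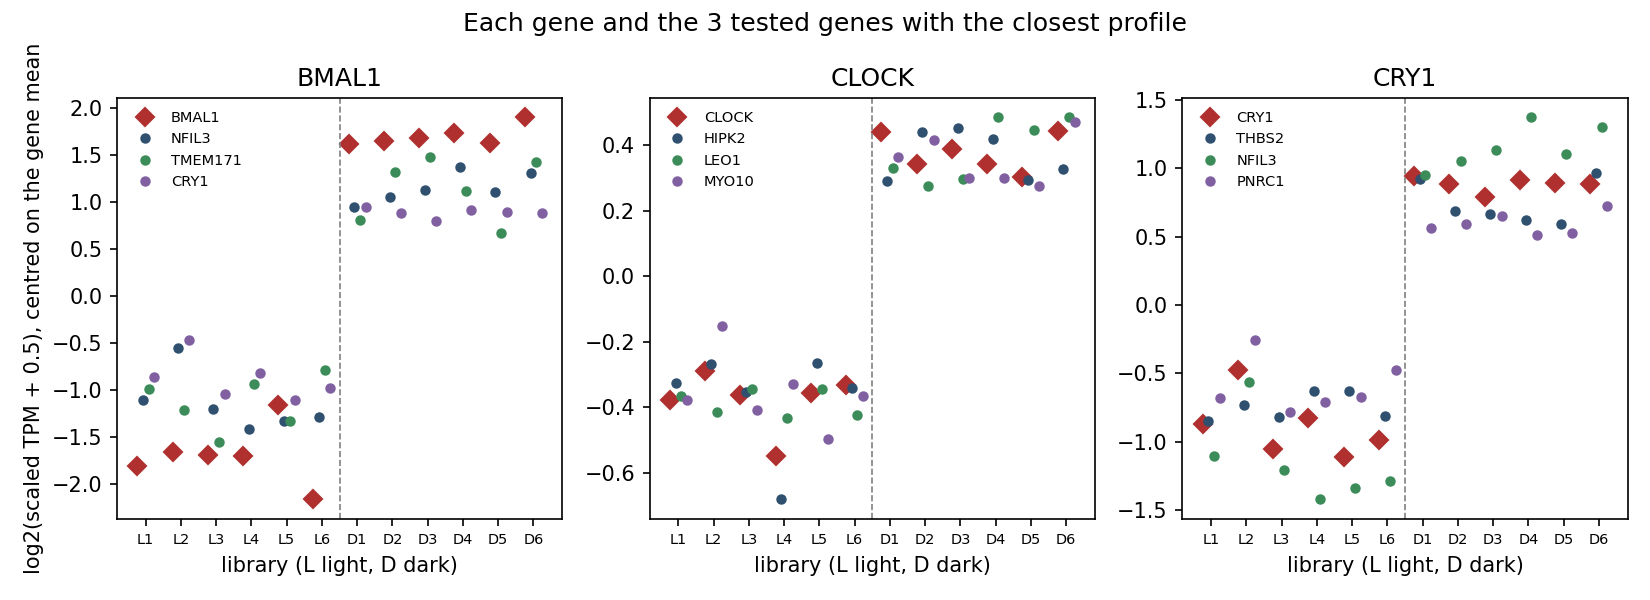
Profiles of BMAL1, CLOCK and CRY1 (red diamonds) and of the 3 tested genes closest to each (circles). The vertical axis is log2(scaled TPM + 0.5) centred on the mean of each gene, with its own range in each panel, and the horizontal axis gives the light (L) and dark (D) libraries by replicate number. The neighbours of CLOCK lie nearest to it, with distances of 0.0841 to 0.0966.

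Markers of the choroid plexus epithelium were abundant in every library. All 10 listed epithelial markers had an identifier, with a summed level of 264261 to 314815 TPM in the light phase and 298002 to 321837 TPM in the dark phase. Most of this sum was TTR, at 253710 to 304180 TPM in the light phase and 286835 to 309722 TPM in the dark phase. Of the 10 markers, OTX2, KL and PRLR were called higher and AQP1 and SLC4A5 lower in the dark phase. Of the other cell types listed, the stromal markers DCN and PDGFRA summed to 135 to 216 and 145 to 228 TPM, the ependymal RARRES2 and DYNLRB2 to 196 to 255 and 164 to 230 TPM, and the blood markers HBA-A1 and HBB to 5695 to 22593 and 3286 to 8515 TPM, in the light and dark phase. The leukocyte marker PTPRC lay at 1.93 to 2.97 and 1.27 to 2.14 TPM in the light and dark phase. Of these other markers DYNLRB2 was called (log2 difference -0.37, limma, FDR = 0.0362). RARRES2, listed for ependyma as well, was not called (log2 difference 0.05, limma, FDR = 0.695). No listed marker of endothelium, neurons or astrocytes had an identifier. The part of any of these in the changes of BMAL1, CLOCK and CRY1 was not tested.

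Light replicate 2 stood apart from the other light libraries. TTR, the main secretory product of the epithelium, was at 253710 TPM there against 299818 to 304180 TPM in the others, and HBB was at 5535 TPM against 1406 to 1956 TPM. This library also had the highest CRY1, CLOCK and NFIL3 and the lowest NPAS2 of the light phase. Without it the log2 differences were 3.41 for BMAL1, 0.77 for CLOCK and 1.85 for CRY1, and CRY1 had a limma FDR of 1.09e-09.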

How the data were processed

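RNA-seq values of 12 rat choroid plexus libraries, 6 per phase and 1 rat each, were used. Per the labels and the study's methods, libraries were made with the NEBNext Ultra kit, sequenced as paired 150 bp reads to an output of 12 Gb, and aligned with STAR 2.7.9a to Rnor_6.0. The authors computed TPM with RSEM 1.3.3, and these deposited TPM values were the starting point. The FPKM values were deposited with them and served for alternatives only. The authors' own test ran on read counts with DESeq2; no counts were used here, the number of reads per library is not in the files used, and the precision was taken from the spread between rats.

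Each library was divided by a trimmed mean of ratios (30% of ratios and 5% of levels trimmed at each end, factors 0.941 to 1.05) and transformed as log2(TPM + 0.5). Genes averaging 1 TPM or more, 12513 in all, were tested with limma 3.58.1 in R 4.3.3, with a trend and phase alone, and 2212 (17.7%) passed a Benjamini-Hochberg FDR of 0.05. BMAL1, CLOCK and CRY1 all passed the filter. Exact permutation tests enumerated all arrangements in Python 3.11.15, and scipy 1.17.1 gave the ranks and the Benjamini-Hochberg adjustment of these tests. No pair of libraries was identical, and correlations were 0.987 to 0.994 over all genes. The labels give no batch or date.

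Symbols came from the study's supplementary tables, held in part, and 3627 tested genes (29.0%) had one. Of 2053 such genes in its list of differentially expressed genes, 1337 were called here, and of the other 1574, 147 were called. The genes named were BMAL1, CLOCK and CRY1, their paralogues, up to 6 genes of each clock list by smallest p and the 3 closest profiles of each gene; FBXW11, CSNK2A1 and SKP1 were named after their values were seen. Genes and lists were chosen with earlier results of these data known. Some listed genes are not reported here.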

Additional observations from a re-analysis of the deposited data

Results flagged for a closer look

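In 60 groups of 6 libraries, 1 gene and 1 phase each, 6 had a highest or lowest library that stood far from the other 5 by Dixon's test, where chance gives about 3.0. Of the 6, 4 lay in light replicate 2.

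BMAL1 reached 24.1 TPM in dark replicate 6, against 19.6 to 20.7 TPM in the other dark libraries. CRY1 reached 9.16 TPM in light replicate 2, against 5.39 to 6.62 TPM in the other light libraries. NFIL3 reached 4.26 TPM in the same library, against 1.88 to 2.66 TPM. MYO10, the third closest profile to CLOCK, stood there at 11.03 TPM against 8.10 to 9.04 TPM, and BTRC at 18.7 TPM against 21.8 to 23.3 TPM. HDAC3 was low in light replicate 3, at 41.1 TPM against 45.3 to 46.8 TPM.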

How the results depend on the processing

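BMAL1, CLOCK and CRY1 kept direction and call in all 24 alternative analyses run for each: log2 differences were 3.11 to 3.71 (limma FDR 3.74e-10 to 1.73e-05) for BMAL1, 0.63 to 0.78 (3.33e-07 to 0.000315) for CLOCK and 1.61 to 1.85 (1.09e-09 to 6.30e-05) for CRY1. Leaving out 1 library gave 3.31 to 3.51, 0.72 to 0.77 and 1.73 to 1.85. The 4 ratios kept direction and call in the 17 alternatives of each, one of which, no added TPM, was chosen after seeing the data, as were the other amounts added for the closest profiles.

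With each library's quotient of summed FPKM over summed TPM in the model, 7 genes of the clock lists were called in place of 15, and 346 of all genes in place of 2212 (66.5% of them higher in the dark phase in place of 56.0%). Of the 8 clock genes that lost their call, CSNK1D, DDB1 and BTRC kept at least their log2 difference (0.21, 0.22 and 0.39) and had a larger SE, and the other 5 were nearer to 0. KMT2A turned to -0.034 there. Without light replicate 2, NONO, not called in either, was at -0.00074, the lowest of its values with 1 library left out, which reached 0.059. GSK3B was called without light replicate 1 (FDR 0.0226) and without dark replicate 6 (FDR 0.0453). Without scaling, r turned to 0.16 for BMAL1 with CLOCK in the light phase and to 0.032 for BMAL1 with CRY1 in the dark phase, neither passing its test.

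Same-numbered libraries of the phases share only a number: their deviations correlated at -0.107 to 0.047, and no library was closest to its own number. With a replicate block 1593 genes were called, 14 of the clock lists, and the limma FDR was 1.73e-05 for BMAL1, 0.000197 for CLOCK and 2.59e-05 for CRY1. The block gave p = 0.03125 for each ratio, the smallest an exact permutation of signs over 6 pairs allows.

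The sequencing output is given as 12 Gb, but the reads counted per library are not in the files used, so that counting error could not be given for BMAL1 in the light phase, at 0.910 to 2.38 TPM.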
